A study of Mus musculus with 40 samples.

Results

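The axoneme and cilium genes described here were chosen by name from the gene symbols of the array annotation. The rule took numbered symbols of the Dnah, Dnai, Dnali, Rsph, Tekt, Ift, Cfap, Bbs and Spag families, together with Foxj1 and Tppp3, and found 37 of the 12393 genes tested. Dynlrb2, also named by the rule, was not analysed here. The members were read by 50 probe sets, 9 members had several, and each gene was followed through its brightest probe set over all arrays.

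RNA from murine lung was hybridised to 40 one-colour arrays in 8 groups of 5. The design crossed 2 strains, 2 treatments given by aspiration and 2 times after it. The groups were C3H lungs at 24 h after allergen and after PBS (phosphate-buffered saline, the vehicle), C3H lungs at 6 h after allergen and after PBS, AJ lungs at 24 h after allergen and after PBS, and AJ lungs at 6 h after allergen and after PBS. AJ is described in the labels as a hyperresponsive strain. The titles abbreviate the allergen as OVA and the descriptions as HDM, so it is called allergen. Every description names AJ although 20 titles carry C3H, and strain was therefore read from the titles. Age and sex were not given in the sources used here, and the labels do not say that numbered arrays of a group came from separate mice. The p-values therefore measure the spread between these samples, which may be partly technical.

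The axoneme is the microtubule core of a cilium. In motile airway cilia, dynein arms slide neighbouring microtubule doublets, radial spokes and the central pair shape the beat, and tektins lie within the doublets. Intraflagellar transport (IFT) trains and the BBSome, a coat-like complex, carry cargo along motile and primary cilia alike, while Foxj1, a forkhead transcription factor, switches on the programme of motile cilia in multiciliated airway cells.

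Promoter sequence was available in the RefSeq table (build GRCm38.p6) for 28 of the 37 members, in 31 windows from 250 bases before to 50 after an annotated start. The 250 bases before the start are shown for Cfap20 and Ift57, because both were called in a comparison and carry a match to a ciliary motif. They are also shown for Cfap298, which carries a pair of matches and was called in no comparison through its brightest probe set. Cfap20 lies on the minus strand at chr8:95434870-95435119, Ift57 on the plus strand at chr16:49699044-49699293 and Cfap298 on the minus strand at chr16:90934850-90935099. Capitals mark GTAAACA, a forkhead core sequence, in Cfap20 and matches to the X-box, the site of RFX factors, in Ift57 and Cfap298. Each is written 5′ to 3′ on the strand of its gene.
Cfap20: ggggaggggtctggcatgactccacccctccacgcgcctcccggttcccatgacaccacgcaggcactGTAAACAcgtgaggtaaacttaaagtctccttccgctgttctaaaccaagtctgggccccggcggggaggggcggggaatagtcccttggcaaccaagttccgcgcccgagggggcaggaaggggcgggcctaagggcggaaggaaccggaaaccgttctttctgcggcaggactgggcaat
Ift57: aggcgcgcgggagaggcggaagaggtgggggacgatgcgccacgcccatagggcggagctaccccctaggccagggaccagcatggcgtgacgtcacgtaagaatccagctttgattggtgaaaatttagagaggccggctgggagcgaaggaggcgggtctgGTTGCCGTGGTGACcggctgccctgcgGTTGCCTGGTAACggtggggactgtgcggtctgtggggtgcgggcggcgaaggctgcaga
Cfap298: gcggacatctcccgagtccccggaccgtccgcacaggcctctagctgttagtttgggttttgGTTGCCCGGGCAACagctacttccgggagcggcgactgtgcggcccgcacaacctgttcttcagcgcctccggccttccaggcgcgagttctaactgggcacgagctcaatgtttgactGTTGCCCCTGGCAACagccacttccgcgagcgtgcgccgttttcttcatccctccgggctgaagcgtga
GTAAACA, searched on both strands, occurred in 1 of the 31 member windows (3.226%), against 3.65% of 32851 windows of all genes in the table. The X-box was searched on both strands, with a gap of 0 to 3 bases allowed in its middle, and the 2 motifs did not overlap in any member window. It occurred in 4 of the 31 windows (12.903%), which belonged to Ift57, Cfap298 and Tekt2, against 1.528% of all windows. The 2 matching Tekt2 windows overlap and hold the same site, GTTGCTCGGCAAC, so that by gene the counts were 3 of 28 members and 474 of 27025 genes. A match is a sequence description and was not tested for binding.

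Expression is given as log2(intensity + 16), called the log2 level, and as differences of this value. The pseudocount of 16 understates the change of dim genes, and 12.91% of the member values lay below it, against 13.59% over all genes. Levels of different genes come from different probe sets and give no order of transcript abundance. Over the 40 arrays, the mean log2 level of the members ran from 4.37 for Spag4 to 9.84 for Tppp3, with a median of 6.30 against 6.80 over all genes, and 27 of the 37 lay above the dimmest 25% of all genes. All 12 IFT members (Ift20, Ift22, Ift27, Ift46, Ift57, Ift74, Ift80, Ift81, Ift88, Ift122, Ift140 and Ift172) were above it. The same held for 2 of 4 dynein heavy chains, 2 of 3 radial spoke proteins, both tektins, 4 of 7 Cfap members, 2 of 5 Spag members and 1 of 2 Bbs members. Low signals were thus found among the motor genes: Dnah1 and Dnah11 had mean log2 levels of 4.95 and 4.94.

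The members moved little between conditions, and in most allergen comparisons so did all genes. The members' median absolute difference between allergen and PBS was 0.145 at 24 h in AJ lungs, against 0.142 over all genes. In C3H lungs it was 0.128 at 6 h and 0.129 at 24 h, against 0.148 and 0.154. At 6 h in AJ lungs it was lower in the members, at 0.092 against 0.182. The highest and lowest of a member's 8 group means lay less than 1 log2 unit apart for 36 of the 37, with a median range of 0.52, and Spag6l was the exception at 1.28. The median SD between arrays within groups was 0.25. A set of 3 arrays stood apart from the rest. AJ allergen 6 h replicate 1 and AJ PBS 6 h replicate 3 had actin 3′ to 5′ log2 ratios of 0.94 and 0.88, where the other 38 arrays reached at most 0.35. C3H PBS 6 h replicate 2 had a mean correlation of 0.938 with its own group, where the others had at least 0.956. In the 2 arrays with a high 3′ to 5′ ratio Foxj1 stood at 6.56 and 6.39, its lowest values over the 40 arrays.

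**Figure D1:**
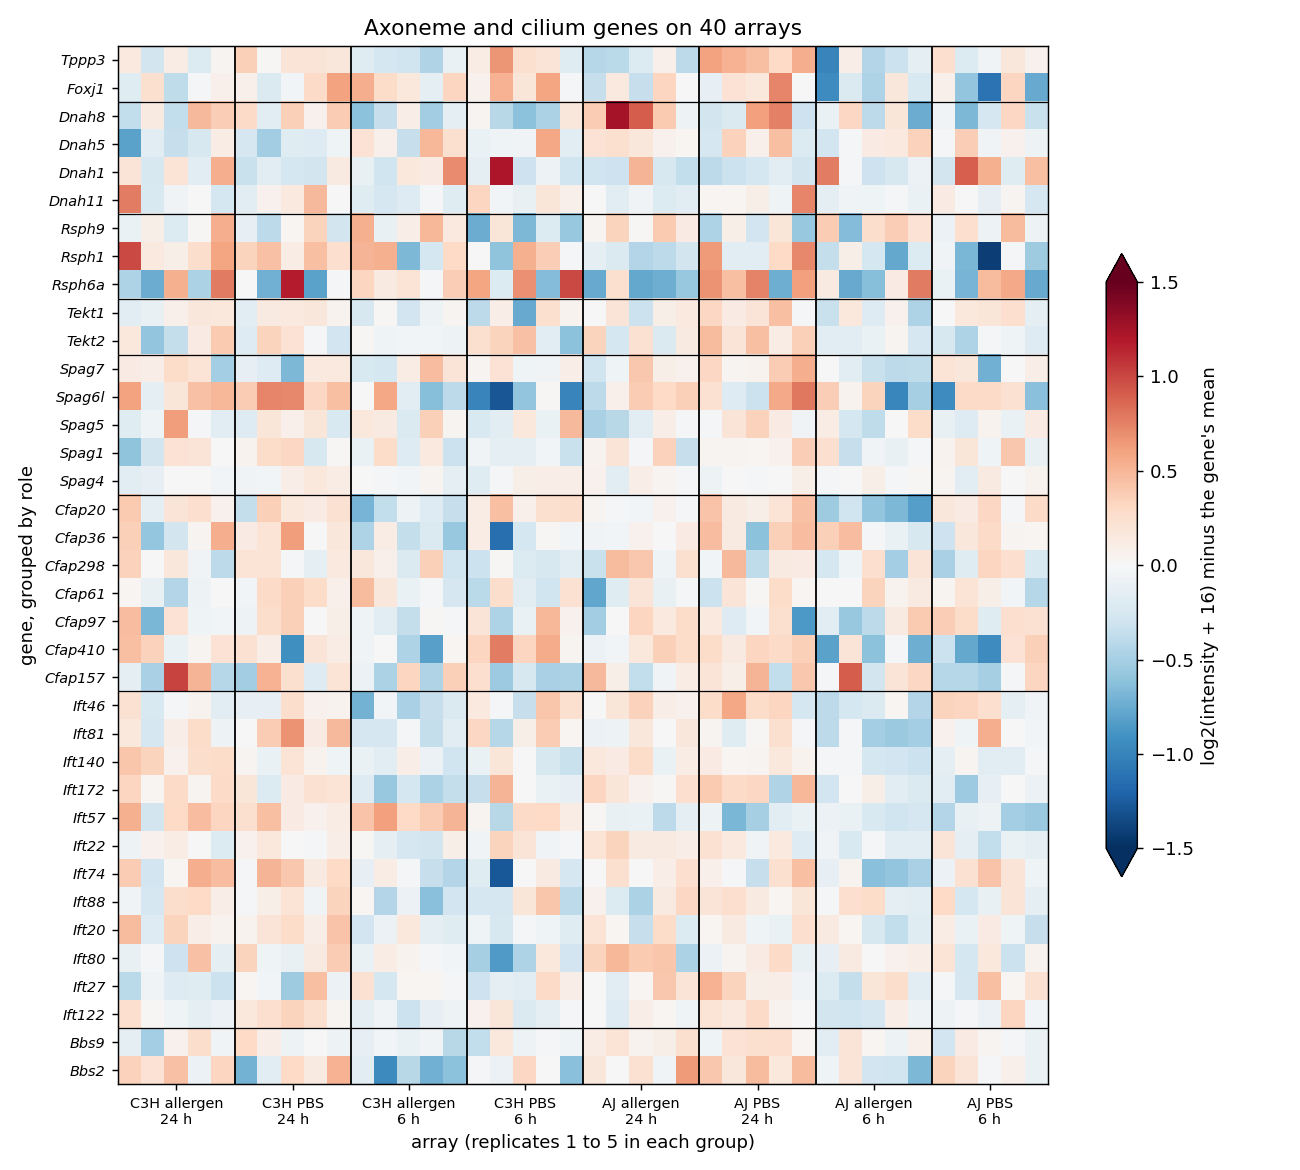
Each cell is one gene's log2(intensity + 16) on one array minus that gene's mean over the 40 arrays, with genes in rows by role and arrays in columns by group. Most cells are pale; the darker ones lie in single arrays, such as Ift74 in C3H PBS 6 h replicate 2 and Rsph1 in AJ PBS 6 h replicate 3, and in Cfap20 across the AJ allergen 6 h arrays.

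Differences were tested with limma over all genes, with Benjamini-Hochberg adjustment and a threshold of 0.05, and a gene is said to have been called, risen or fallen when it passed. In the 4 comparisons of allergen with PBS there were 9 calls on 5 members, of which 8 were lower after allergen. At 6 h in AJ lungs 4 of 37 members fell (Cfap20, Ift81, Ift46 and Tppp3) and none rose, where 19% of all genes were called and 12% were called lower. At 24 h in AJ lungs Tppp3 alone fell, where 7.84% of all genes were called and 3.28% were called lower. At 6 h in C3H lungs Cfap20, Ift46 and Tppp3 fell and Rsph9 rose, where 7.62% of all genes were called, 3.69% lower and 3.93% higher. In C3H lungs at 24 h limma called no member, 3 had an unadjusted p under 0.05, and 3.24% of all genes were called. The members' median difference stayed near 0, at -0.01, -0.10, -0.03 and -0.06 in that order of comparisons, against -0.07, -0.00, -0.00 and -0.04 over all genes; with arrays centred on their medians the first of these was 0.06, against 0.01 over all genes. The number of members whose allergen and PBS arrays did not overlap was 1, 2, 3 and 0 of 37, against 13.5%, 8.67%, 5.7% and 4.6% of all genes.

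**Figure D2:**
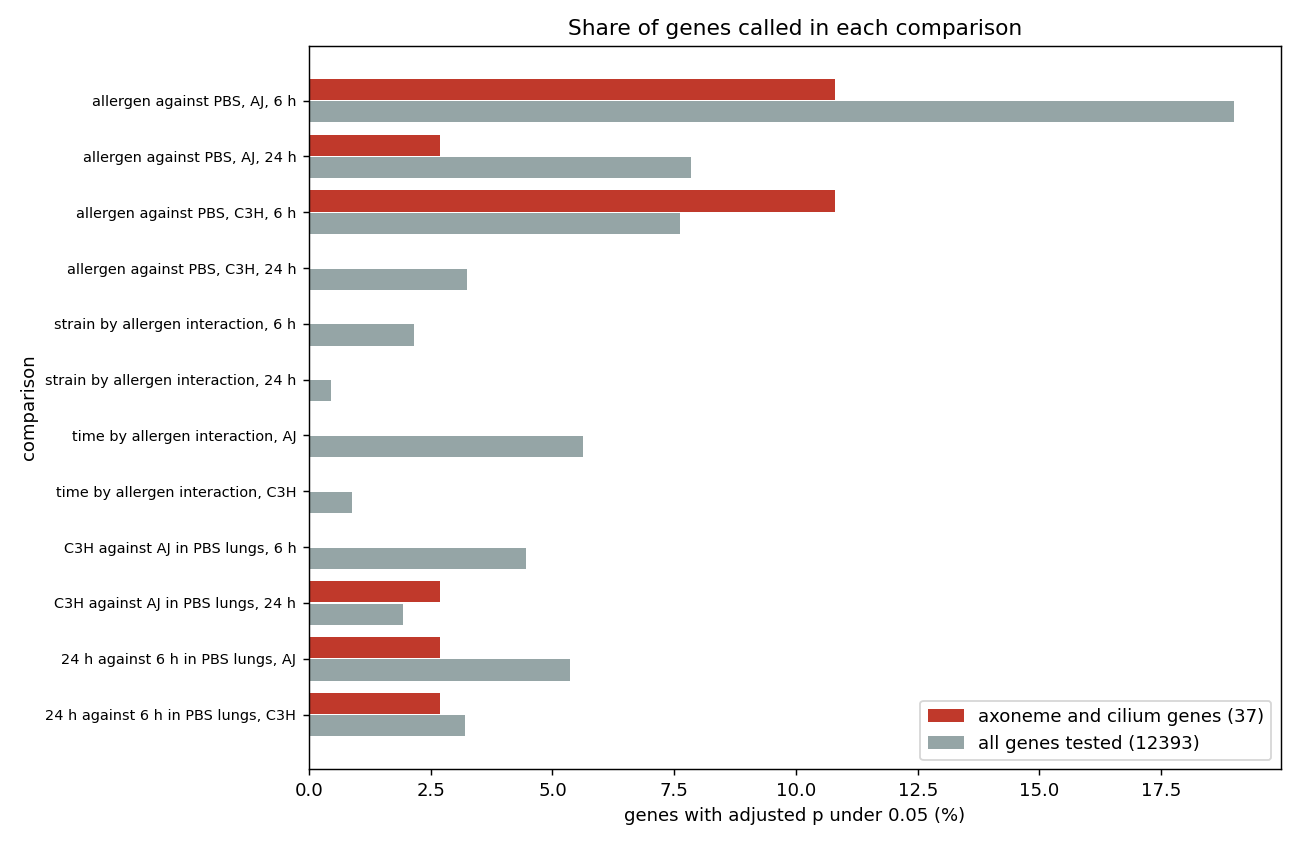
Bars give the percentage of the 37 members and of all 12393 genes that passed an adjusted p of 0.05 in each of the 12 comparisons. The members' share was 10.8% in AJ and in C3H lungs at 6 h after allergen, 2.7% where 1 member was called and 0% elsewhere.

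Tppp3 encodes a tubulin polymerisation-promoting protein that is abundant in multiciliated cells, and it had the highest signal of the members. Its log2 levels at 24 h in AJ lungs were 9.42, 9.43, 9.64, 9.92 and 9.44 after allergen, against 10.45, 10.37, 10.30, 10.14 and 10.38 after PBS. Every allergen array lay below every PBS array, and the level differed by -0.76 ± 0.14 (SE, n = 5 each, adjusted p = 0.000343). In bulk lung RNA, fewer cells of a type and less RNA per cell cannot be told apart. In AJ lungs at 6 h the log2 levels were 8.85, 9.94, 9.40, 9.52 and 9.70 after allergen, against 10.09, 9.64, 9.79, 10.01 and 9.91 after PBS. The groups overlapped, the difference of -0.40 ± 0.14 passed narrowly (adjusted p = 0.0441), and it was -0.25 (adjusted p = 0.231) without AJ allergen replicate 1. It was also lost without allergen replicate 3 or 4 or PBS replicate 1, 3, 4 or 5. AJ allergen replicate 1 had the lowest Tppp3 level of all 40 arrays and also the highest 3′ to 5′ ratio. In C3H lungs at 6 h they were 9.66, 9.58, 9.54, 9.39 and 9.74 after allergen, against 9.95, 10.50, 10.08, 10.04 and 9.66 after PBS. The difference was -0.47 ± 0.14 (adjusted p = 0.0378) and -0.35 (adjusted p = 0.155) without C3H PBS replicate 2, and leaving out C3H allergen replicate 1, 2, 3 or 4 or C3H PBS replicate 1, 3 or 4 likewise ended the call. By 24 h in C3H lungs the means were 9.81 ± 0.19 after allergen and 10.03 ± 0.12 after PBS (SD, n = 5 each), a difference of -0.22 ± 0.14 that did not pass (adjusted p = 0.44). The allergen effects of the strains at 24 h differed by 0.54 ± 0.20 (C3H minus AJ, adjusted p = 0.25), which did not pass either.

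Foxj1 was called in none of the 12 comparisons. Its log2 levels at 24 h in AJ lungs were 7.15, 7.65, 7.15, 7.82 and 7.51 after allergen, against 7.37, 7.72, 7.66, 8.23 and 7.50 after PBS, so the groups overlapped almost throughout (difference -0.24 ± 0.22, adjusted p = 0.631). The difference at 24 h in C3H lungs was -0.20 ± 0.22 (adjusted p = 0.691). At 6 h the differences were 0.08 ± 0.22 in AJ lungs and -0.03 ± 0.22 in C3H lungs. The allergen arrays of Foxj1 thus overlapped the PBS arrays in all 4 comparisons.

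Cfap20, a conserved protein of the inner junction between the tubules of a doublet, gave the lowest adjusted p among the members. In AJ lungs at 6 h its log2 levels were 6.88, 7.12, 6.83, 6.74 and 6.60 after allergen, against 7.59, 7.54, 7.73, 7.39 and 7.71 after PBS (difference -0.76 ± 0.12, adjusted p = 8.67e-06). In C3H lungs they were 6.72, 7.05, 7.34, 7.23 and 7.08 after allergen, against 7.53, 7.87, 7.49, 7.66 and 7.69 after PBS (difference -0.57 ± 0.12, adjusted p = 0.00181). In both strains each allergen array lay below each PBS array. Its second probe set, 6.80 in mean log2 level, differed by -0.47 ± 0.11 in AJ and -0.31 ± 0.11 in C3H lungs at 6 h. By 24 h the differences were -0.25 ± 0.12 in AJ (adjusted p = 0.245) and 0.05 ± 0.12 in C3H lungs (adjusted p = 0.876), neither of which passed. The second probe set differed at 24 h by -0.40 ± 0.11 in AJ and -0.01 ± 0.11 in C3H lungs, so in AJ lungs its difference was close to that at 6 h. The change of the allergen effect with time, 24 h minus 6 h, was 0.51 ± 0.17 in AJ (adjusted p = 0.0774) and 0.62 ± 0.17 in C3H lungs (adjusted p = 0.0749), short of the threshold in each strain. In the second probe set this change was 0.07 ± 0.16 in AJ and 0.31 ± 0.16 in C3H lungs. In the brightest probe set it passed without AJ allergen 6 h replicate 2 (0.58, adjusted p = 0.0413) and without C3H allergen 24 h replicate 2, C3H allergen 6 h replicate 3 or C3H PBS 24 h replicate 2 (0.68 to 0.69).

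Among the transport genes, Ift81 and Ift46 fell. Ift81, which with Ift74 forms the tubulin-binding module of the IFT-B complex, had log2 levels of 6.91, 7.28, 6.79, 6.74 and 6.78 after allergen at 6 h in AJ lungs, against 7.36, 7.23, 7.84, 7.30 and 7.25 after PBS. One allergen array lay among the PBS arrays, and the difference was -0.50 ± 0.14 (adjusted p = 0.00833). Its second probe set gave -0.59 ± 0.13. In C3H lungs at 6 h the Ift81 difference was -0.29 ± 0.14 and did not pass (adjusted p = 0.234), and the strain difference was 0.21 ± 0.20 (C3H minus AJ, adjusted p = 0.708). At 24 h it was 0.01 ± 0.14 in AJ and -0.29 ± 0.14 in C3H lungs, again without passing. Ift46, an IFT-B protein known from Chlamydomonas for carrying outer dynein arms, averaged 7.55 ± 0.19 after allergen and 7.96 ± 0.22 after PBS at 6 h in AJ lungs, and 7.45 ± 0.25 after allergen and 7.90 ± 0.29 after PBS at 6 h in C3H lungs (SD, n = 5 each). Its differences of -0.40 ± 0.14 (adjusted p = 0.0417) and -0.44 ± 0.14 (adjusted p = 0.046) passed narrowly and were lost when single arrays were left out. These were allergen replicates 1, 2, 3 and 5 and PBS replicates 1, 2 and 3 in AJ lungs (adjusted p up to 0.109), and allergen replicates 1, 3 and 4 and PBS replicates 1, 2, 4 and 5 in C3H lungs (adjusted p up to 0.171).

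The radial spoke head protein Rsph9 was the one member that rose after allergen when each was read through its brightest probe set. Its log2 levels at 6 h in C3H lungs were 7.34, 6.69, 6.90, 7.30 and 6.95 after allergen, against 6.06, 6.99, 6.13, 6.60 and 6.23 after PBS. The groups overlapped through PBS replicate 2, and the difference was 0.64 ± 0.19 (adjusted p = 0.0324). It lost its call without allergen replicate 1 or 4 or PBS replicate 1, 3 or 5, with adjusted p up to 0.107. In AJ lungs at 6 h it differed by 0.02 ± 0.19, and the strain difference of 0.62 ± 0.27 did not pass (adjusted p = 0.279).

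**Figure D3:**
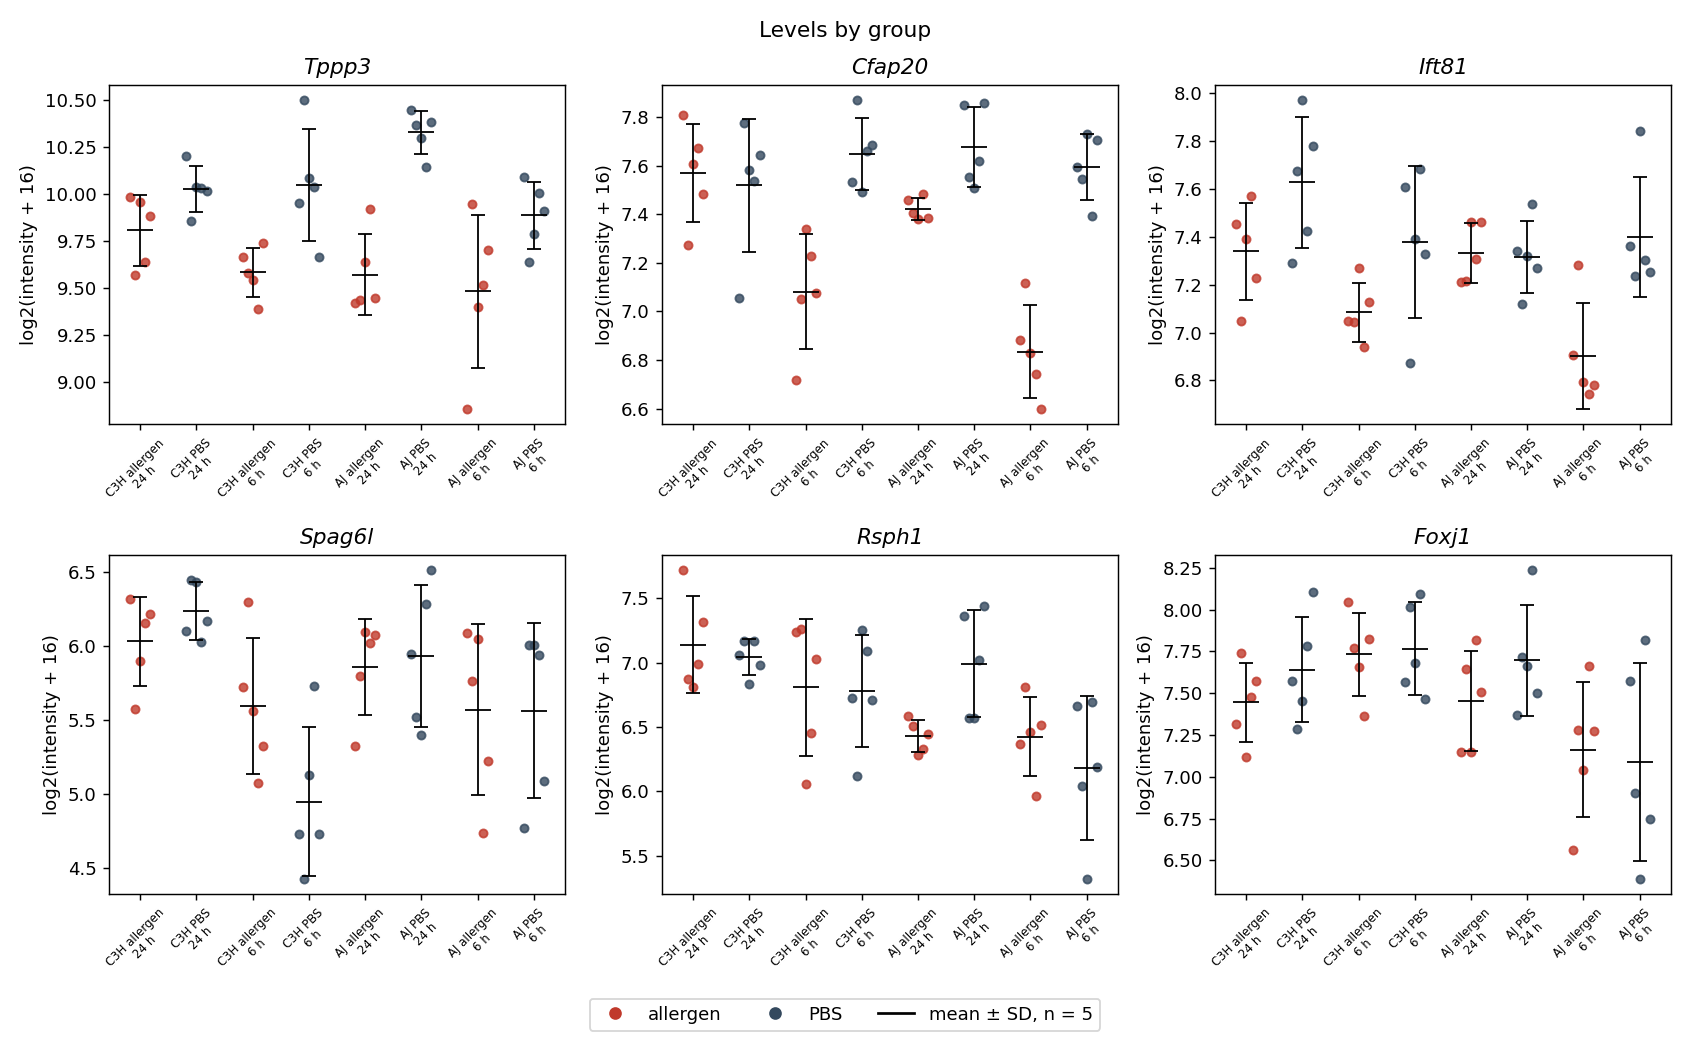
Points are log2(intensity + 16) on each array of the 8 groups for 6 genes, with bars at the mean ± SD of 5 arrays; vertical scales differ between panels. Cfap20 is lower in allergen than in PBS lungs at 6 h in both strains, Tppp3 is lower after allergen at 24 h in AJ lungs, and Foxj1 overlaps between allergen and PBS throughout.

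The other classes of members, grouped by gene symbol, gave no call after allergen. The dynein heavy chains Dnah1, Dnah5, Dnah8 and Dnah11, the tektins Tekt1 and Tekt2, Bbs2 and Bbs9 and all 5 Spag members did not pass in any of the 4 comparisons. The brightest of each class gave differences within about 2 SE of 0: at 24 h in AJ lungs Dnah8 differed by 0.45 ± 0.24 (adjusted p = 0.322), Tekt1 by -0.19 ± 0.14 (adjusted p = 0.534), Spag7 by -0.23 ± 0.17 (adjusted p = 0.537) and the BBSome subunit Bbs9 by 0.00 ± 0.11 (adjusted p = 0.993). The second Dnah8 probe set differed there by -0.05 ± 0.13. The members named next did not pass and were picked after their values were seen. Cfap410, a protein of the ciliary base, differed by -0.66 ± 0.22 at 6 h in C3H lungs (adjusted p = 0.063; -0.75, adjusted p = 0.0408, without C3H PBS replicate 5), with no overlap between 4.40 to 5.24 after allergen and 5.26 to 5.98 after PBS. Its second probe set differed there by 0.07 ± 0.17, and did not show the lower level. Cfap298 had 4 probe sets. At 6 h in C3H lungs the brightest differed by 0.20 ± 0.17, another by 0.59 ± 0.16, and the remaining ones by 0.06 ± 0.09 and 0.04 ± 0.07. Ift74 differed by -0.49 ± 0.19 at 6 h in AJ lungs (adjusted p = 0.0664). The transport genes that did not pass at 6 h in C3H lungs included Ift57 at 0.38 ± 0.14 (adjusted p = 0.0905), the BBSome subunit Bbs2 at -0.49 ± 0.18 (adjusted p = 0.101) and Ift172 at -0.36 ± 0.14 (adjusted p = 0.122). Rsph6a, a spoke protein of sperm, differed by -0.87 ± 0.36 at 24 h in AJ lungs (adjusted p = 0.163; -1.14, adjusted p = 0.0492, without AJ PBS replicate 4), where its lowest levels lie near the pseudocount. Rsph1 differed by -0.56 ± 0.24 at 24 h in AJ lungs (adjusted p = 0.172).

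**Figure D4:**
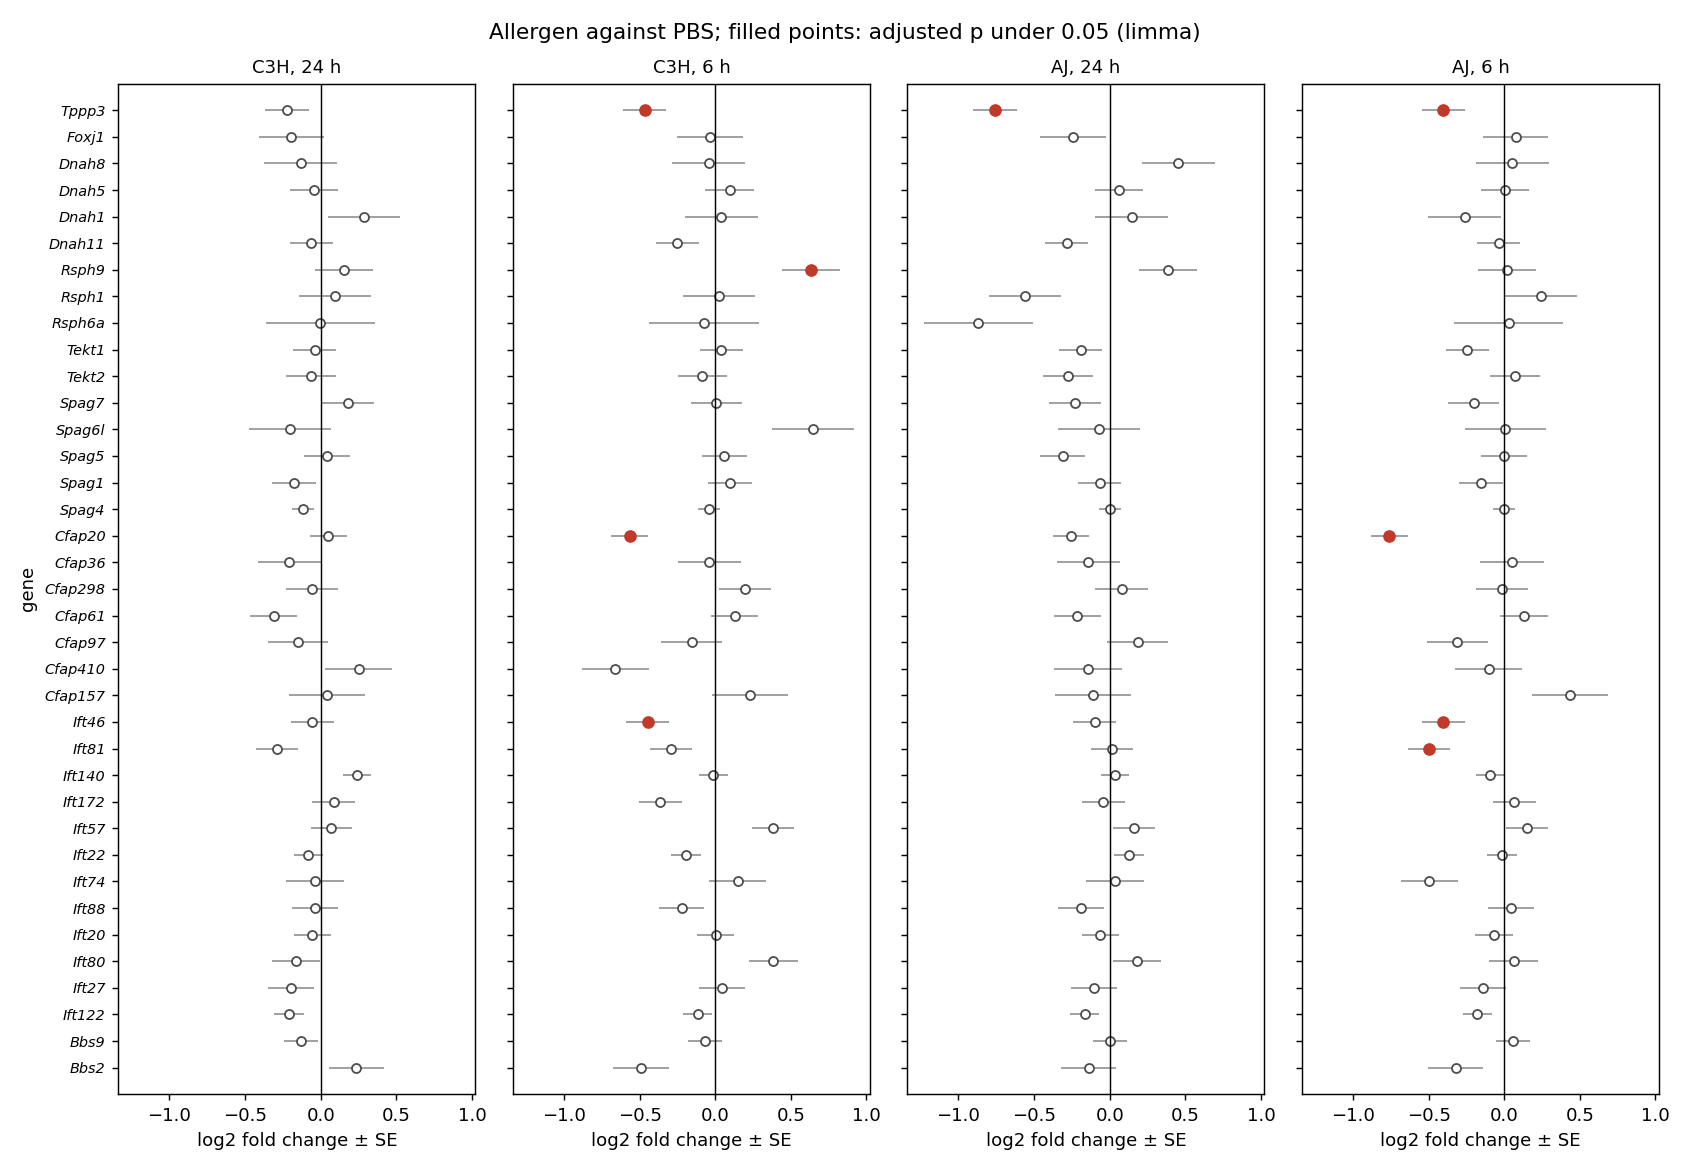
Points are log2 fold changes (allergen over PBS) ± SE for the 37 members in each strain and time, and filled points passed an adjusted p of 0.05. Filled points are Tppp3, Cfap20, Ift46 and Ift81 below 0 and Rsph9 above 0; the other members have open points in all 4 panels.

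No member passed a test of whether the allergen effect differed between strains or times. In the strain comparison at 6 h and at 24 h, 0 of 37 members were called by limma, against 2.15% and 0.46% of all genes, with 3 and 1 members at an unadjusted p under 0.05. In the time comparison within AJ and within C3H lungs the count was again 0, against 5.62% and 0.88% of all genes, with 3 and 6 members at an unadjusted p under 0.05. The allergen comparisons of a strain at different times used separate PBS arrays, whereas the PBS arrays are shared between the allergen, strain and time comparisons that include them.

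Between strains, PBS lungs differed at Ift57, an IFT-B protein. At 24 h its log2 levels were 7.26, 7.46, 7.14, 7.09 and 7.13 in C3H lungs, against 6.94, 6.33, 6.52, 6.86 and 6.91 in AJ lungs. No C3H array fell among the AJ arrays, and the difference of 0.50 ± 0.14 passed narrowly (adjusted p = 0.0459). It was the one member called of 37, where 1.93% of all genes were called and 1.09% were called higher, and 1 member had groups that did not overlap, against 4.27% of all genes. Leaving out AJ PBS replicate 2 (0.41, adjusted p = 0.194), AJ PBS replicate 3 or any one of the C3H PBS arrays ended the call. At 6 h the Ift57 means were 7.08 ± 0.29 in C3H and 6.68 ± 0.23 in AJ lungs (difference 0.40 ± 0.14, adjusted p = 0.0872). At that time limma called 0 members, 8 had an unadjusted p under 0.05, and 4.45% of all genes were called. The groups overlapped for all 37 members there, whereas 4.37% of all genes did not overlap. Foxj1 differed there by 0.68 ± 0.22 (adjusted p = 0.0609): its log2 levels were 7.57, 8.02, 7.68, 8.09 and 7.47 in C3H lungs, against 7.58, 6.90, 6.39, 7.82 and 6.75 in AJ lungs. The lowest of these, AJ PBS replicate 3, is one of the arrays with a high 3′ to 5′ ratio. Foxj1 passed without AJ PBS replicate 4 (0.86, adjusted p = 0.0135), AJ PBS replicate 1 or C3H PBS replicate 5.

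With time after PBS, most members were somewhat higher at 24 h than at 6 h. In AJ lungs 31 of 37 members had a difference above 0, with a median of 0.13, against 5836 of 12393 genes and a median of -0.02. In C3H lungs these were 25 of 37 and 0.13, against 6105 of 12393 and -0.00. One member was called in each strain, out of 37, where 5.37% of all genes were called in AJ (2.9% higher at 24 h) and 3.21% in C3H lungs (1.76% higher). Groups did not overlap for 2 members in each strain, against 6.16% of all genes in AJ and 4.74% in C3H lungs. Some other gene lists moved in the same comparison. Of 40 further motile cilium genes, 28 in AJ and 26 in C3H lungs had a difference above 0, and 1 and 3 of them were called higher. Of 37 further genes of the primary cilium and of ciliary transport, 19 lay above 0 and 18 below in AJ lungs. In C3H lungs 21 of them lay above 0 and 16 below, and 4 in AJ and 2 in C3H lungs were called higher. Of 17 club cell genes 11 lay above 0 and 6 below in AJ lungs, and 8 above and 9 below in C3H lungs. Those called higher were 4 in AJ and 3 in C3H lungs. All 9 smooth muscle genes were above 0 in AJ lungs, against 6 of 9 in C3H lungs. The part of these cells in the members' differences over time was not tested.

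Spag6l, the mouse counterpart of a central-pair protein, was called in C3H lungs. Its log2 levels were 6.10, 6.44, 6.43, 6.02 and 6.16 at 24 h, against 4.73, 4.43, 5.13, 5.73 and 4.73 at 6 h. The groups did not overlap and differed by 1.28 ± 0.27 (adjusted p = 0.00395), the widest difference of any member. The value is close to the pseudocount at 6 h and ran from 0.63 to 2.04 with pseudocounts of 64 and 1. In AJ lungs Spag6l averaged 5.93 ± 0.48 at 24 h and 5.56 ± 0.59 at 6 h (SD, n = 5 each) and did not pass (adjusted p = 0.469). Rsph1, a spoke head protein, was called in AJ lungs, with log2 levels of 7.36, 6.57, 6.57, 7.02 and 7.44 at 24 h, against 6.67, 6.04, 5.32, 6.69 and 6.19 at 6 h. The groups overlapped, and the difference of 0.81 ± 0.24 (adjusted p = 0.0364) was 0.60 (adjusted p = 0.169) without AJ PBS 6 h replicate 3, the same array in which Foxj1 was lowest. It was also lost without AJ PBS 6 h replicate 2 or AJ PBS 24 h replicate 1, 4 or 5. In C3H lungs Rsph1 averaged 7.04 ± 0.14 at 24 h and 6.78 ± 0.44 at 6 h, without passing (adjusted p = 0.648). Foxj1 averaged 7.70 ± 0.33 at 24 h and 7.09 ± 0.59 at 6 h in AJ lungs (difference 0.61 ± 0.22, adjusted p = 0.0852), and passed without AJ PBS 6 h replicate 4 (0.79, adjusted p = 0.0207). Tppp3 averaged 10.33 ± 0.12 at 24 h and 9.89 ± 0.18 at 6 h in AJ lungs, and its groups did not overlap (difference 0.44 ± 0.14, adjusted p = 0.0607). It passed with quantile normalization (0.45, adjusted p = 0.0489), a pseudocount of 64, the dimmest 25% of genes left out or only the compared groups fitted (adjusted p of 0.0486, 0.0493 and 0.0497 in that order).

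Without the 3 arrays that stood apart, an alternative chosen after seeing the data, Cfap20 differed by -0.74 in AJ and -0.51 in C3H lungs at 6 h, Ift81 by -0.39 in AJ lungs, Rsph9 by 0.78 in C3H lungs and Spag6l by 1.15 over time in C3H lungs, and each of these passed. Ift46 and Tppp3 at 6 h in both strains and Rsph1 over time in AJ lungs did not pass then, while Ift74 (-0.48, adjusted p = 0.0467) passed at 6 h in AJ lungs, Ift81 (-0.42, adjusted p = 0.0388) at 6 h in C3H lungs and Tppp3 (0.42, adjusted p = 0.0416) over time in AJ PBS lungs.

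**Figure D5:**
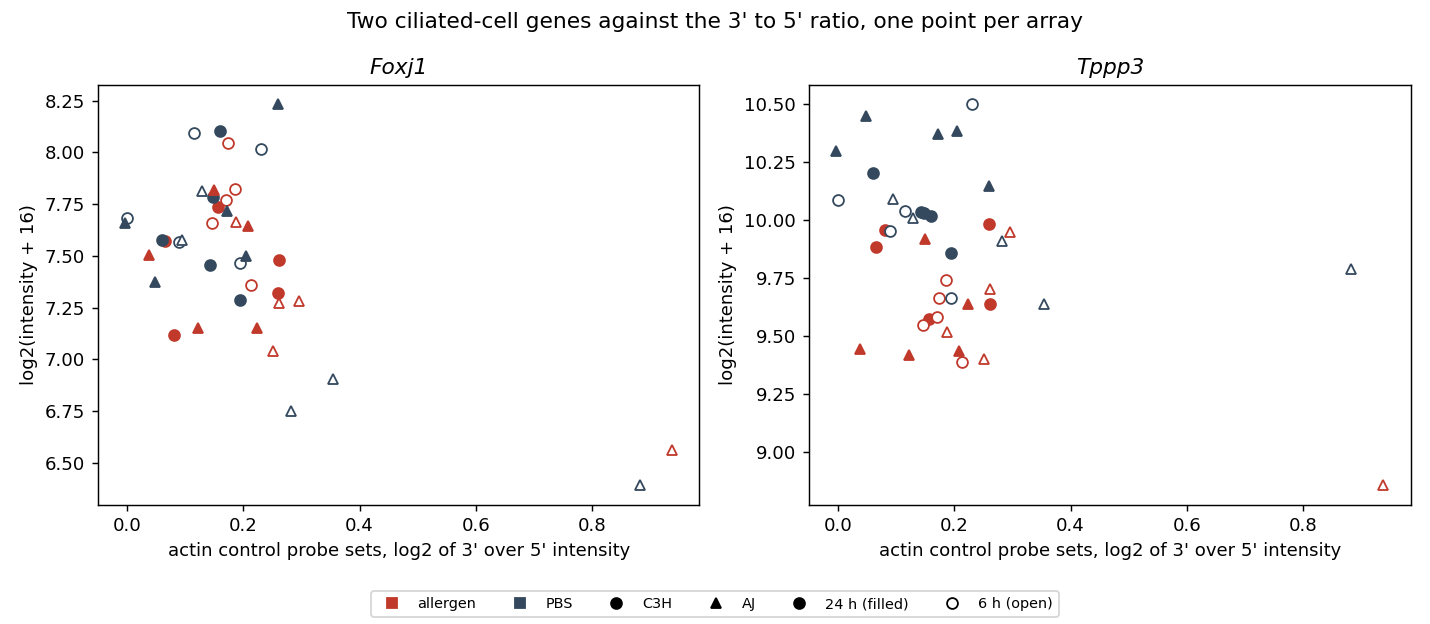
Each point is one array, with the actin control probe sets' log2 ratio of 3′ to 5′ intensity across and log2(intensity + 16) of Foxj1 or Tppp3 up. The 2 arrays at ratios near 0.9 carry the lowest Foxj1 values, and one of them the lowest Tppp3 value.

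Within groups the members showed little common movement. With each group's mean removed, the 666 pairs of members had a median correlation over the 40 arrays of 0.015, and 12 pairs exceeded 0.5. These correlations are descriptions over arrays that share the same RNA and scaling, and the pairs named were picked after seeing their values. Ift74 stood in the highest 4, with Cfap36 (r = 0.826, rho = 0.764), Ift57 (r = 0.717, rho = 0.672), Spag6l (r = 0.701, rho = 0.711) and Ift81 (r = 0.685, rho = 0.606). Without the 2 arrays farthest from the median of Ift74, or of Spag6l and Ift81 in their pairs, r was 0.740, 0.579, 0.705 and 0.588. Over all genes, the closest to Ift74 was the non-member C1galt1c1 (r = 0.890). Non-members were also closest to Cfap36 (Hnrnpr, 0.829), Ift57 (Tceal9, 0.782), Spag6l (Mphosph6, 0.775) and Ift81 (Nab1, 0.764). The SD of r with all genes was 0.302 for Ift74, 0.295 for Cfap36 and 0.298 for Ift57. Foxj1 exceeded 0.5 with Cfap410 alone (r = 0.517, rho = 0.496), and r was 0.402 without the 2 arrays farthest from its median. The 20 genes whose residuals were most like those of Foxj1 held no other member, and the likest was Zdhhc8 (r = 0.789).

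Other genes of the cilium were taken from lists drawn from general knowledge. Of 40 further motile cilium genes measured, 3 fell at 6 h after allergen in AJ lungs (7.5%, beside 12% of all genes called lower), among them Myb, a transcription factor of multiciliated-cell differentiation and of blood progenitors (-0.95 ± 0.19, adjusted p = 0.000271), and Dnaaf5, a dynein arm assembly factor (-0.45 ± 0.11, adjusted p = 0.00311). None of the 40 was called at 6 h in C3H lungs by limma (1 had an unadjusted p under 0.05), Nme7 alone rose at 24 h in AJ lungs (0.56 ± 0.16, adjusted p = 0.0281), and Lrrc46 alone fell at 24 h in C3H lungs (-0.82 ± 0.24, adjusted p = 0.0453). Nme7, a kinase-like protein of the doublet lumen, was also higher in C3H than in AJ lungs after PBS, by 1.22 ± 0.16 at 6 h (adjusted p = 4.19e-06) and 1.20 ± 0.16 at 24 h (adjusted p = 5.82e-06). The summed intensity of the 40 genes was 5132 to 5678 in AJ allergen and 5047 to 5634 in AJ PBS arrays at 6 h, and 4948 to 5961 in AJ allergen and 5543 to 6291 in AJ PBS arrays at 24 h. At 24 h in C3H lungs 31 of the 40 lay below 0 and 9 above, with a median difference of -0.12, against -0.04 over all genes. Their mean log2 level per array there was 6.34 to 6.45 after allergen, against 6.49 to 6.59 after PBS, without overlap. Their summed intensities overlapped, at 6101 to 7585 after allergen and 6306 to 6813 after PBS.

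Of 37 further genes of the primary cilium and of ciliary transport, 12 fell and none rose at 6 h after allergen in AJ lungs (32.4%, beside 12% of all genes called lower), with a median difference of -0.22. Gli2, a transcription factor of hedgehog signalling, differed by -1.06 ± 0.26 (adjusted p = 0.00244), Tulp3, an adaptor of membrane protein entry into cilia, by -0.67 ± 0.13 (adjusted p = 0.000178), Invs, the inversin of the proximal cilium, by -0.63 ± 0.13 (adjusted p = 0.000283), and Kifap3, a subunit of the IFT kinesin, by -0.53 ± 0.13 (adjusted p = 0.00177). Smo alone was called at 6 h in C3H lungs (-0.29 ± 0.09, adjusted p = 0.0338), and at 24 h none was called by limma in either strain, with 3 in AJ and 6 in C3H lungs at an unadjusted p under 0.05.

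The labelled tissue's markers gave signal. Over the 8 groups 9 alveolar type 2 genes had mean log2 levels of 10.88 to 11.23 and 8 alveolar type 1 genes of 10.18 to 10.72. The median gene stood at 6.80, which compares signals of different probe sets and not transcript abundance. Markers of other lung cells moved in the same comparisons. All 13 leukocyte genes rose at 6 h in AJ lungs, where their summed intensity was 10048 to 14393 after allergen, against 2944 to 3949 after PBS. In AJ lungs at 24 h 12 of 13 rose, with sums of 6390 to 11017 after allergen, against 3149 to 3660 after PBS. Of 12 goblet cell genes 10 rose at each time in AJ lungs, with sums of 10274 to 12563 after allergen against 1217 to 1955 after PBS at 6 h, and 8551 to 10826 after allergen against 1351 to 2233 after PBS at 24 h. In C3H lungs 7 and 8 leukocyte genes rose at 6 h and 24 h, with sums of 6094 to 15616 after allergen against 4430 to 5875 after PBS, and 6020 to 9011 after allergen against 4192 to 4691 after PBS. The goblet cell genes that rose there were 8 and 9, with sums of 3842 to 8328 after allergen against 934 to 1763 after PBS at 6 h, and 3502 to 8736 after allergen against 812 to 1205 after PBS at 24 h. None of these leukocyte and goblet sums overlapped between allergen and PBS arrays. Of 17 club cell genes 4 fell and 1 rose at 6 h, and 6 fell at 24 h, in AJ lungs, while 3 fell and 1 rose at 6 h and none was called at 24 h in C3H lungs, where 4 had an unadjusted p under 0.05. The club cell sums at 24 h in AJ lungs were 28336 to 35034 after allergen, against 35653 to 38615 after PBS. Of 8 alveolar type 1 genes, 6 fell at 6 h and 3 at 24 h in AJ lungs, and 2 fell at 6 h and none was called at 24 h in C3H lungs, where 1 had an unadjusted p under 0.05. Their sums in AJ lungs were 11305 to 13894 after allergen against 15627 to 19078 after PBS at 6 h, and 12070 to 12460 after allergen against 14636 to 16659 after PBS at 24 h, with no overlap. The C3H sums at 6 h did not overlap either, at 12140 to 14118 after allergen against 15498 to 17720 after PBS. Of the 9 alveolar type 2 genes, 2 fell at 6 h and 1 at 24 h in AJ lungs, and 3 fell at 6 h in C3H lungs. None of them was called at 24 h in C3H lungs by limma, where 2 had an unadjusted p under 0.05. Of 10 endothelial genes 4 fell in AJ and 3 in C3H lungs at 6 h. All 14 genes of cardiac and skeletal muscle lay below 0 at 24 h in AJ lungs, with a median difference of -1.36, and 5 of them fell. Beside these counts, 12% of all genes were called lower at 6 h and 3.28% at 24 h in AJ lungs, and 3.69% at 6 h in C3H lungs. Called higher were 871 of 12393 genes at 6 h and 565 at 24 h in AJ lungs, and 487 at 6 h and 260 at 24 h in C3H lungs. Of the club cell genes 29.4% were called at 6 h in AJ lungs, beside 19% of all genes. The part of all these markers in the lower Tppp3, Cfap20, Ift46 and Ift81 levels was not tested. The 12 sperm and testis genes, included because Spag and Tekt genes are also used in sperm, had summed intensities between 307 and 602 on all arrays. After allergen 2 of them were called, 1 up and 1 down at 6 h in AJ lungs (16.7%, beside 19% of all genes).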

How the data were processed

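The authors deposited linear intensity values, a single value for each probe set of each array, already scaled: the mean left after trimming 2% of probe sets at each end was 150.036 to 150.046 on all 40 arrays. The sources used here do not give the software. Array medians ran from 63.7 to 81.3, correlations between arrays from 0.875 to 0.985, and 0 pairs of arrays were identical. Precision is limited by how many arrays there are.

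Of 22690 probe sets, 64 were controls and 20380 of the rest had 1 symbol in the platform annotation, 691 several and 1555 none. Only those with a single symbol were tested. The brightest probe set per gene gave 12393 genes, of which 37 were members. From the intensities, log2(intensity + 16) was computed and fitted with limma 3.58.1 (R 4.3.3) on 8 group means, with 12 contrasts, 32 residual and 4.62 prior degrees of freedom. P-values are two-sided and Benjamini-Hochberg adjusted across the 12393 genes, and 0.05 was the threshold. The script was tested on simulated data.

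The rule for naming genes took Foxj1, Tppp3, the called members and the brightest member of each class. Other members are said to have been picked after their values were seen. Genes named from the lists of further cilium genes were picked from those that passed, and not all that passed are named. The members and lists were chosen with earlier results of these data known. The replicate numbers were checked for pairing: same-numbered arrays did not correlate above 0.1 in every pair (-0.17 to 0.26 between AJ allergen and PBS at 6 h), so no block was used. Alternatives covered the pseudocount, centring, quantile normalization, dim genes, the mean of probe sets, the groups in the fit, a replicate block, each array left out and 3 arrays that stand apart.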

Additional observations from a re-analysis of the deposited data

Results flagged for a closer look

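In 24 of 296 sets of 5 arrays (37 members in 8 groups, 8.11%), one array lay far from the others of its group by Dixon's criterion at 5 arrays, a gap over 0.71 of the whole range. Chance gives about 1 in 20, or 14.8 of these sets. Their log2 levels follow, beside the range of the other arrays of the group. In the AJ allergen 6 h group, Dnah1 stood at 5.71 in replicate 1 (others 4.64 to 4.93) and Rsph9 stood at 6.15 in replicate 2 (others 7.02 to 7.19). In the AJ PBS 6 h group, Cfap97 stood at 5.18 in replicate 3 (others 5.59 to 5.73), Ift122 stood at 6.41 in replicate 4 (others 6.00 to 6.06), Ift172 stood at 6.49 in replicate 2 (others 6.89 to 7.04), Ift81 stood at 7.84 in replicate 3 (others 7.23 to 7.36) and Spag7 stood at 6.46 in replicate 3 (others 7.18 to 7.39). In the AJ allergen 24 h group, Dnah1 stood at 5.46 in replicate 3 (others 4.58 to 4.71), Ift80 stood at 5.82 in replicate 5 (others 6.63 to 6.80) and Rsph6a stood at 5.26 in replicate 2 (others 4.25 to 4.45). In the AJ PBS 24 h group, Dnah11 stood at 5.67 in replicate 5 (others 4.88 to 5.03), Ift172 stood at 6.59 in replicate 4 (others 7.33 to 7.54), Rsph6a stood at 4.28 in replicate 4 (others 5.47 to 5.76) and Spag1 stood at 5.33 in replicate 5 (others 4.98 to 5.02). In the C3H allergen 6 h group, Bbs9 stood at 5.59 in replicate 5 (others 5.87 to 5.96) and Dnah11 stood at 4.92 in replicate 4 (others 4.69 to 4.75). In the C3H PBS 6 h group, Dnah1 stood at 6.16 in replicate 2 (others 4.63 to 4.87), Dnah5 stood at 6.53 in replicate 4 (others 5.80 to 5.90) and Ift74 stood at 5.46 in replicate 2 (others 6.49 to 6.87). In the C3H allergen 24 h group, Dnah11 stood at 5.71 in replicate 1 (others 4.67 to 4.95), Spag5 stood at 5.88 in replicate 3 (others 5.08 to 5.24) and Spag7 stood at 6.68 in replicate 5 (others 7.29 to 7.46). In the C3H PBS 24 h group, Cfap410 stood at 4.29 in replicate 3 (others 5.32 to 5.45) and Ift172 stood at 6.84 in replicate 2 (others 7.17 to 7.27). The 3 arrays that stand apart hold Dnah1 (AJ allergen 6 h replicate 1), Cfap97, Ift81 and Spag7 (AJ PBS 6 h replicate 3) and Dnah1 and Ift74 (C3H PBS 6 h replicate 2).

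Among the further cilium genes, 5 tests of a difference between groups passed (limma, adjusted over all genes). The effect of allergen on Ttc30b at 6 h was 0.72 log2 higher in C3H than in AJ lungs (adjusted p = 0.0237). In AJ lungs the effect of allergen was higher at 24 h than at 6 h for Invs by 0.60 (adjusted p = 0.0392), Lztfl1 by 0.91 (adjusted p = 0.0391), Myb by 0.91 (adjusted p = 0.0375) and Tulp3 by 0.74 (adjusted p = 0.0101).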

How the results depend on the processing

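Of 12 member calls, 5 stayed past the threshold in every alternative run: Cfap20 at 6 h in both strains, Ift81 at 6 h and Tppp3 at 24 h in AJ lungs, and Spag6l over time in C3H lungs. The other 7 were lost in some, and no called value changed direction in 226 alternative values. With arrays centred on their median, 2 members were called at 6 h in AJ lungs instead of 4 and 0 instead of 1 between strains at 24 h. Centring also turned the split of calls over all genes at 6 h in AJ lungs to 53.2% higher, against 36.9% as deposited. Fitted on the groups compared alone, the counts were 2 at 6 h in AJ, 1 instead of 4 at 6 h in C3H, 1 instead of 0 for the time difference in AJ (Cfap20), 0 between strains at 24 h and 2 instead of 1 over time in AJ PBS lungs. With the mean of all probe sets they were 2 instead of 1 at 24 h in AJ lungs (Cfap20 added), 1 instead of 0 for the time difference in AJ (Ift81) and 2 over time in AJ PBS lungs. A pseudocount of 1 gave 0 between strains at 24 h, and a pseudocount of 64 or leaving out the dimmest 25% of genes gave 3 over time in AJ PBS lungs (Tekt2 and Tppp3 added). Without the dimmest genes 1 member (Foxj1), and without the 3 arrays that stand apart 1 (Ift57), was called between strains at 6 h instead of 0. A replicate block, which the arrays do not bear out as a pairing, gave 2 instead of 4 at 6 h in C3H, 1 (Foxj1) instead of 0 between strains at 6 h and 0 instead of 1 at 24 h, and moved no other count by over 1.5 times.

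Leaving out each array in turn gave 2 to 4 members at 6 h and 1 to 2 at 24 h in AJ, 1 to 4 at 6 h and 0 to 0 at 24 h in C3H lungs after allergen, 0 to 0 for the strain differences and 0 to 1 for the time differences of the allergen effect. Between strains it gave 0 to 2 at 6 h and 0 to 1 at 24 h, and over time 0 to 3 in AJ and 1 to 3 in C3H PBS lungs. Tppp3 at 6 h was -0.25 without AJ allergen replicate 1. Without AJ PBS 24 h replicate 4, Tekt2 (0.57), Tppp3 (0.49) and Ift172 (0.56) were called over time in AJ PBS lungs, and without C3H PBS 6 h replicate 4, Ift74 (0.69) and Ift80 (0.66) were called over time in C3H PBS lungs. The cause of these shifts was not tested.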
